A study of Mus musculus with 6 samples.

Results

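Integrins are receptors by which cells hold on to the extracellular matrix. Each receptor pairs an alpha chain, which largely sets the ligand, with a beta chain, whose tail links the receptor to talin and the actin cytoskeleton. In the embryonic lung they attach the epithelium to its basement membrane and mesenchymal cells to fibronectin and collagen, and loss of Itga3 is known to disturb airway branching in the mouse. The genes described here are 10 integrin subunit genes, chosen by name: the laminin receptor chains Itga3, Itga6 and Itga7, the fibronectin and RGD receptor chains Itga4, Itga5, Itga8 and Itgav (RGD is the arginine-glycine-aspartate motif these receptors bind, although Itga4 recognises other sequences), the collagen receptor chain Itga2, and the beta chains Itgb1 and Itgb5. The choice was made with earlier results of these data known. The 10 genes were read by 20 of the 12422 probe sets of the array, where a probe set is a group of short oligonucleotides designed against 1 transcript. All probe sets annotated with 1 of these symbols alone were taken.

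The samples were tissue dissected from the lung of mouse embryos at stage E11.5 (days of embryonic development), with no genotype, strain or treatment given in the labels. The branching group was made from the branching region of the lungs of both sides, and the non-branching group from the main bronchi with a portion of trachea. Each group had 3 arrays with 1 total RNA sample each, called replicates 1 to 3. Nothing in the labels says that replicates came from separate embryos or litters, so p-values cover only the spread among these 6 samples, which can be technical, and precision is limited by the small number of arrays. The signal is the deposited intensity on a linear scale. Array medians ran from 212 to 229. A mean signal was taken as above background when it exceeded 147, the level that 95% of 114 control values did not exceed (19 probe sets for transcripts of bacteria or yeast). Each difference is the log2 signal in branching less that in non-branching, with its standard error (SE) and 95% interval from a limma fit over 9316 probe sets. Calls were made where the adjusted p was below 0.05. Levels are compared between regions for a given probe set, never between probe sets.

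Of the 10 integrin genes, 6 had a probe set with mean signal above background in both regions: Itga2, Itga3, Itga7, Itgav, Itgb1 and Itgb5. Itga4 was above background on average in the non-branching region alone. Itga5, Itga6 and Itga8 were at background on all 6 arrays. No integrin gene was called: limma called 0 of the 17 probe sets tested, and 3 more were too dim to be tested. At an unadjusted p under 0.05, 2 of the 17 passed, both of Itga3 and both higher in branching. Among all 9316 probe sets tested, 2.03% were called (0.902% higher and 1.13% lower in branching) and 14.6% had an unadjusted p under 0.05 (6.92% in the direction of Itga3), against 11.8% of the integrin probe sets, so neither count sets the integrins apart from other genes. The 3 branching arrays lay wholly above or below the 3 non-branching arrays for 3 of the 17 probe sets, or 17.6%, against 20.8% of all probe sets tested.

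**Figure D1:**
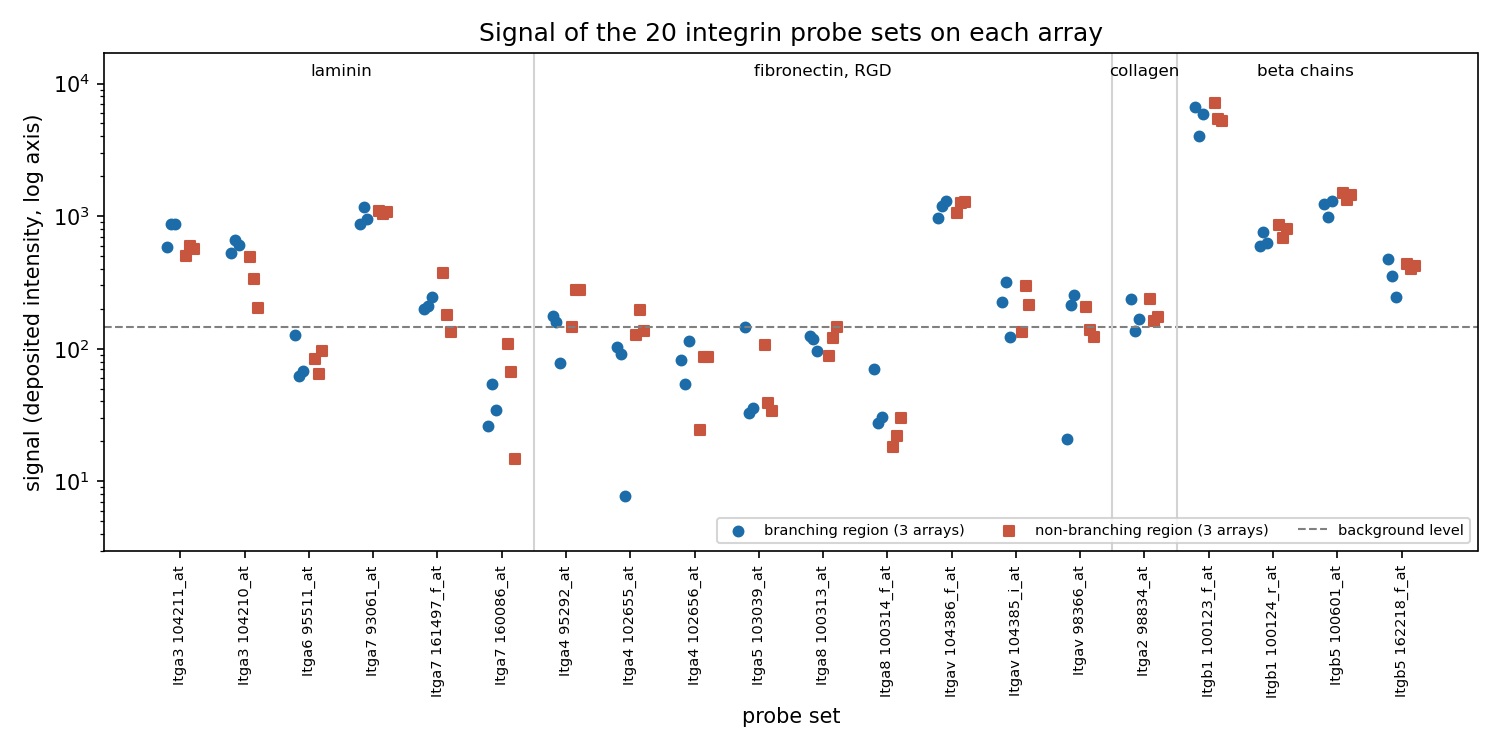
Signal of each of the 20 integrin probe sets on each array (deposited intensity, log axis), with circles for the 3 branching and squares for the 3 non-branching arrays and the background level of 147 as a dashed line. The probe sets of Itga5, Itga6 and Itga8 lie below the line on all 6 arrays, and for most probe sets above it the regions overlap.

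Itga3 encodes the chain that, with Itgb1, forms the main epithelial receptor for laminins containing the chain of Lama5. Its probe set 104210_at read 527, 665 and 601 on branching replicates 1 to 3, and 493, 336 and 203 on the non-branching replicates. As for 9.79% of all probe sets tested, the branching values all lay above the non-branching ones, by a small margin at non-branching replicate 1, and non-branching replicate 3 was the lowest. The log2 difference was 0.88 ± 0.31 (SE, n = 3 per region, 95% interval 0.18 to 1.58), or 1.84-fold, and did not pass (limma adjusted p = 0.227, unadjusted p = 0.0191 from the same limma fit). Its probe set 104211_at read 583, 874 and 871 in branching and 504, 600 and 566 in non-branching. Branching replicate 1 lay among the non-branching values and the other two branching arrays above them. This probe set differed by 0.46 ± 0.20 (95% interval 0.00 to 0.91), or 1.37-fold, and did not pass either (limma adjusted p = 0.337, unadjusted p = 0.0484).

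The direction of Itga3 was the same in both of its probe sets, each of the standard design. With the mean log2 signal of the probe sets of each gene, the Itga3 difference was 0.67 ± 0.21 (limma adjusted p = 0.173). Of 10 epithelial marker genes fixed for this work, none was at background on all 6 arrays and 0 of the 9 tested were called, with a median difference of 0.06. Their summed signal was 4302 to 5002 on the branching arrays and 4012 to 4572 on the non-branching arrays, and their part in the Itga3 values was not tested. In dissected tissue, fewer cells of a type and less RNA per cell cannot be told apart. The 3 genes whose log2 signal over the 6 arrays was most like that of Itga3 probe set 104210_at, among 8293 probe sets of other genes, were Herpud1 (Pearson correlation 0.989), Hcfc1 (0.983) and Brd7 (0.982), a description over 6 arrays that share the same regions. None of these 3 was called.

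**Figure D2:**
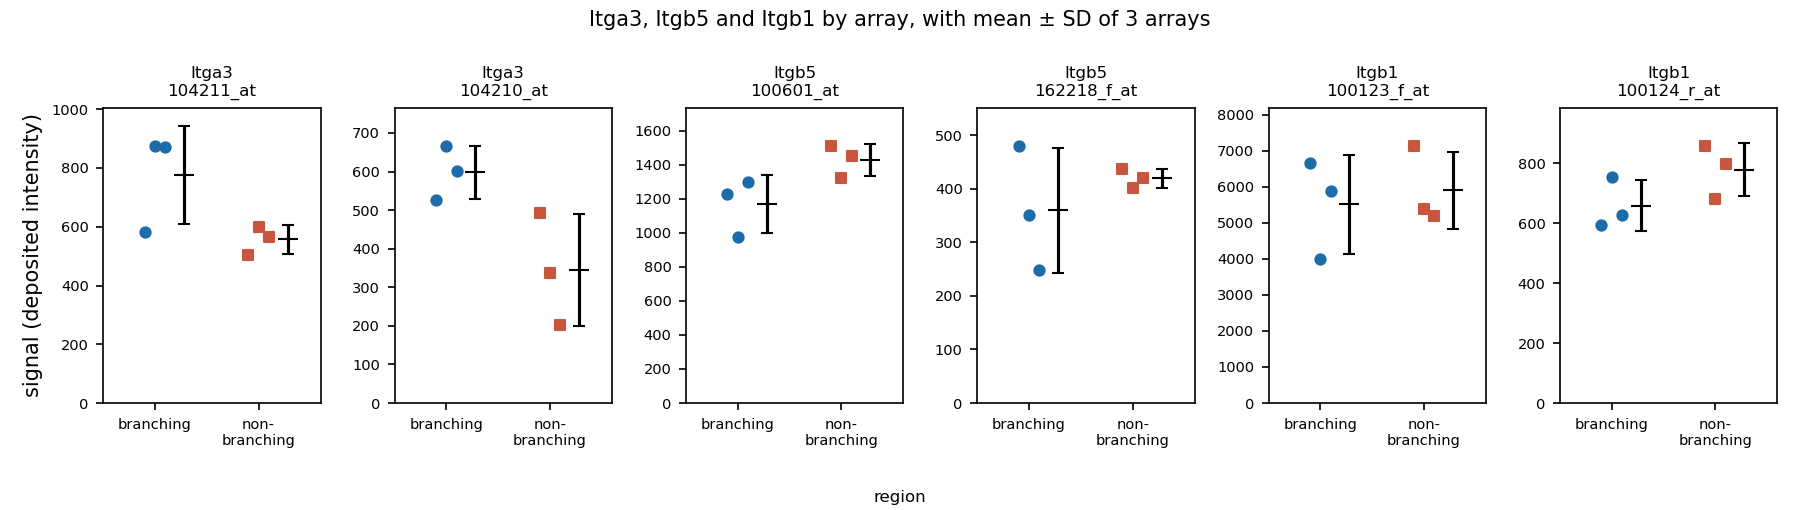
Signal (deposited intensity, linear axis from 0) of the probe sets of Itga3, Itgb5 and Itgb1 on each array, with the mean ± SD of the 3 arrays of each region beside the points. Itga3 probe set 104210_at has means of 598 in branching and 344 in non-branching, and Itgb5 probe set 100601_at has 1168 and 1427.

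Itga7 encodes a laminin receptor chain best known from muscle. Its brightest probe set, 93061_at, read 879, 1180 and 952 in branching and 1098, 1040 and 1082 in non-branching. The non-branching arrays lay close together inside the range of the branching arrays. The difference was -0.11 ± 0.15 (95% interval -0.44 to 0.22, limma adjusted p = 0.801). On this probe set alone, that bounds the change at 1.17-fold upward and leaves a fall to 0.737 of the non-branching level within the interval. A less specific probe set of Itga7, 161497_f_at, read 199, 209 and 244 in branching and 372, 181 and 134 in non-branching. Its difference of 0.06 ± 0.41 had a wider 95% interval, -0.86 to 0.97 (limma adjusted p = 0.970). Probe set 160086_at was at background on all 6 arrays. The skeletal and cardiac muscle markers had a median difference of -0.40, with 2 of 8 tested called lower and summed signals of 2829 to 3258 in branching and 4683 to 5020 in non-branching. Itga6, a laminin receptor chain that can pair with Itgb1 or with Itgb4, was read by 1 probe set with values of 62.5 to 128, below background on every array, so no difference is given for it.

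Itgav pairs with several beta chains, Itgb5 among them, and binds vitronectin, fibronectin and the latent form of TGF-beta. Its brightest probe set, 104386_f_at, of a less specific design, read 966, 1188 and 1295 in branching and 1061, 1248 and 1271 in non-branching. The regions overlapped, and the difference was -0.06 ± 0.15 (95% interval -0.40 to 0.28, limma adjusted p = 0.903). The 2 dimmer probe sets of Itgav scattered more. The first, 104385_i_at, ran from 123 to 319 and differed by 0.02 ± 0.45 (limma adjusted p = 0.994). The second, 98366_at, read 21.0 in branching replicate 1, while the other arrays gave 123 to 253, and differed by -0.55 ± 0.86 (limma adjusted p = 0.831). Its means of 162 in branching and 156 in non-branching were only just above background. In branching 2 of the 3 arrays exceeded the background level, and in non-branching 1 of the 3. The within-region SD of 98366_at, 1.44 on the log2 scale, was above that of 99.3% of probe sets tested. Without branching replicate 1 its difference was 0.61.

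Itga4, whose receptor with Itgb1 binds fibronectin and the cell surface ligand Vcam1, is typical of leukocytes and neural crest cells. Its probe set 95292_at read 175, 159 and 77.7 in branching and 147, 279 and 278 in non-branching. Non-branching replicates 2 and 3 were above every branching array, and non-branching replicate 1 was not. A second probe set, 102655_at, read 104, 91.5 and 7.80 in branching and 126, 196 and 136 in non-branching, so the regions did not overlap, but 1 of the 6 arrays was above background. Probe set 102656_at was below background on all arrays. Neither 95292_at nor 102655_at passed (limma adjusted p = 0.461 for 95292_at and 0.404 for 102655_at), and as the branching mean of both was below background no fold is given. The neuronal and neural crest markers had a median difference of -0.43, with 1 of 6 tested called lower and summed signals of 4316 to 4457 in branching and 5277 to 5792 in non-branching. Of 8 leukocyte markers, 5 were at background on all 6 arrays, including Ptprc, which defines them. The 3 tested had a median difference of 0.49 with 0 called, and the summed signal of the list was 935 to 1058 in branching and 766 to 887 in non-branching. Their part in the Itga4 values was not tested.

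Itga5 encodes the chain of the classical fibronectin receptor, and Itga8 that of an RGD receptor of mesenchymal and smooth muscle cells whose ligands include nephronectin. The Itga5 probe set read 146, 32.8 and 36.0 in branching and 106, 38.9 and 33.7 in non-branching. The brighter Itga8 probe set, 100313_at, read 125, 118 and 96.0 in branching and 87.7, 120 and 145 in non-branching. The dimmer, 100314_f_at, was not tested and read 70.0, 27.6 and 30.4 in branching and 18.3, 21.9 and 30.2 in non-branching. All of these values were below background, so at this signal no difference between the regions was detectable for either gene. Itga2, which pairs with Itgb1 as a collagen receptor, was dim: it read 237, 137 and 168 in branching and 237, 162 and 173 in non-branching. The regions overlapped, with a difference of -0.10 ± 0.36 (95% interval -0.91 to 0.71, limma adjusted p = 0.938).

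Itgb1 is the beta chain shared by most of the alpha chains named above, and both of its probe sets are of less specific designs. The brighter, 100123_f_at, read 6660, 4004 and 5875 in branching and 7124, 5375 and 5200 in non-branching. Replicate 1 was the highest array within each region, and the regions overlapped. It differed by -0.12 ± 0.19 (95% interval -0.54 to 0.31, limma adjusted p = 0.839). The dimmer, 100124_r_at, read 595, 755 and 626 in branching and 856, 682 and 797 in non-branching, a difference of -0.24 ± 0.17 (95% interval -0.63 to 0.14, limma adjusted p = 0.579). Between them the intervals run from 0.648 to 1.24 of the non-branching level.

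Itgb5 pairs with Itgav as a vitronectin receptor. Its probe set 100601_at read 1229, 977 and 1297 in branching and 1507, 1320 and 1453 in non-branching. Every branching array lay below every non-branching array, as for 11.0% of all probe sets tested. The difference was -0.30 ± 0.14 (95% interval -0.62 to 0.02), 1.23-fold more signal in non-branching, and did not pass (limma adjusted p = 0.381). The less specific probe set 162218_f_at read 479, 352 and 247 in branching and 436, 401 and 421 in non-branching. There the branching arrays spread on both sides of the non-branching ones, and the difference was -0.27 ± 0.27 (limma adjusted p = 0.716). With 1 array left out it ran from -0.51 (without branching replicate 1) to -0.03 (without branching replicate 3), and that of 100601_at from -0.38 (without branching replicate 3) to -0.17 (without branching replicate 2).

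By ligand class, the 12 probe sets above background in both regions had a median difference of 0.26 for the laminin receptors (4 probe sets of 2 genes), -0.06 for the fibronectin and RGD receptors (3 probe sets of Itgav), -0.10 for the collagen receptor (1 probe set of Itga2) and -0.26 for the beta chains (4 probe sets of 2 genes), beside -0.0046 for all probe sets tested. The 4 beta chain probe sets were each below 0, although Itgb1 100123_f_at was above it without branching replicate 2 (0.10) or non-branching replicate 1 (0.03), and both Itga3 probe sets were above 0 while those of Itga7 lay on either side. For 9 of the 12 the 95% interval stayed inside a 2-fold change in either direction, and the exceptions were Itga3 probe set 104210_at and the 2 dimmer Itgav probe sets. These medians count probe sets, so a gene read by several weighs more. With 1 probe set per gene, Itga6 at background included, the laminin receptor median was 0.02. No difference between the classes was tested.

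**Figure D3:**
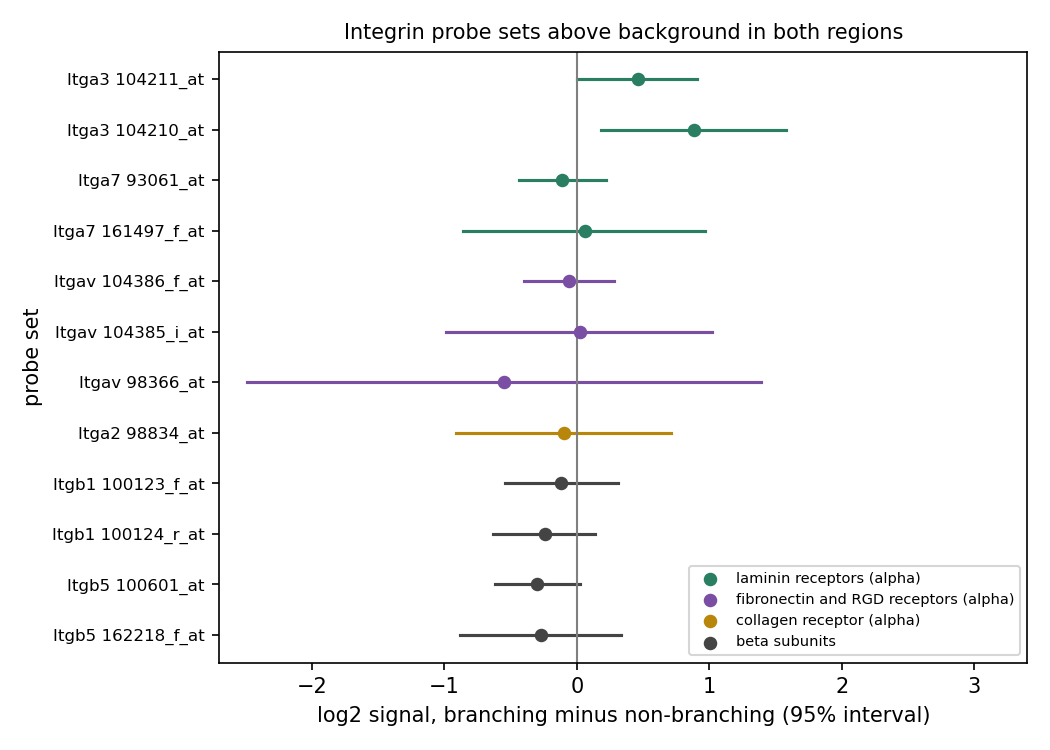
Log2 difference in signal, branching minus non-branching, with its 95% interval from limma, for the 12 integrin probe sets above background in both regions, coloured by ligand class. The Itga3 intervals lie at or above 0, from 0.00 to 0.91 and from 0.18 to 1.58, and those of the other probe sets include 0.

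The ligands of these receptors were examined from lists of matrix genes, with 1 probe set per gene. Without the variance trend in limma none of the calls named in these lists or among the focal adhesion genes was kept (adjusted p 0.0690 to 0.307). Of 11 laminin and nidogen genes tested, 1 was called higher, 1 lower and 9 did not pass, with a median difference of -0.01, beside -0.01 for all 6798 genes tested. Lama5, whose laminins are the preferred ligands of the Itga3 receptor, read 1123, 1062 and 987 in branching and 570, 607 and 503 in non-branching, without overlap. It rose by 0.92 ± 0.15 on this probe set (limma adjusted p = 0.0162), while its less specific probe set read 251 to 293 and 238 to 311 and differed by -0.03 ± 0.26. Lama4, a laminin chain of vessels and mesenchyme, read 857, 773 and 691 in branching and 1549, 1362 and 1288 in non-branching, and fell by 0.86 on the log2 scale (limma adjusted p = 0.0182). Over the same arrays the endothelial markers had a median difference of -0.37, with 1 of 9 tested called lower and summed signals of 3884 to 4578 in branching and 5167 to 5340 in non-branching, and their part in the Lama4 values was not tested. Lama5 passed in 2 of the 6 fits that left out 1 array and Lama4 in 1. The lost calls had adjusted p of 0.0559 to 0.0757 for Lama5 (without any branching replicate or non-branching replicate 3) and 0.0563 to 0.0799 for Lama4 (without any array but branching replicate 1).

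Of 6 fibronectin and RGD ligand genes tested, 1 was called higher, none lower and 5 did not pass, with a median difference of -0.25. Mfge8, which encodes an RGD protein bound by the Itgav receptors, read 5328, 4959 and 5068 in branching and 3430, 3988 and 3794 in non-branching. It rose by 0.46 ± 0.09 (limma adjusted p = 0.0412) but passed in 0 of the 6 fits that left out 1 array, with adjusted p of 0.0874 to 0.148, and did not pass without the filter on dim probe sets (0.0772). Fn1, the fibronectin gene, is named here after its values were seen. It read 1651, 1746 and 1545 in branching and 2247, 2303 and 2352 in non-branching. The regions did not overlap, and its difference of -0.48 ± 0.10 did not pass (limma adjusted p = 0.0509). It passed with the dimmer 50% left out (limma adjusted p = 0.0407), a floor of 64 (0.0449) or array weights (0.0355). It did not pass with the replicate number added to the fit (limma adjusted p = 0.129) or without the variance trend (0.264). Fn1 passed in 0 of the 6 fits that left out 1 array (0.0871 to 0.196). Tnc, the gene of the RGD protein tenascin-C, is also named after its values were seen. It read 263, 131 and 56.0 in branching and 482.5, 661 and 467 in non-branching, without overlap and with 1 of the 3 branching arrays above background. It had the largest difference of the 6 genes tested, -2.09 ± 0.50, and did not pass (limma adjusted p = 0.0746). It passed with array weights (0.0422) or without branching replicate 1 (0.0282). It did not pass without the filter on dim probe sets (limma adjusted p = 0.204) or without the variance trend (0.249). With any other array left out it did not pass either (0.122 to 0.237). Vcam1 and Npnt, the ligand genes of the Itga4 and Itga8 receptors, were also named after their values were seen. Vcam1 read 288, 164 and 143 in branching, the last below background, and 596, 449 and 401 in non-branching. It did not pass (limma adjusted p = 0.0795), but passed with array weights (0.0484) or without branching replicate 1 (0.0402). It failed without the filter (0.172), without the variance trend (0.202) and with any other array left out (0.177 to 0.224). Its less specific probe set 92560_g_at read 211, 112 and 269 in branching and 209, 442 and 304 in non-branching. There the regions overlapped, with a difference of -0.72 ± 0.41 (limma adjusted p = 0.477). Probe set 92559_at was below background on all 6 arrays. Npnt, the nephronectin gene, read 290, 301 and 281 in branching and 257, 270 and 361 in non-branching (limma adjusted p = 0.993).

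Of 9 collagen genes tested, 5 were called lower, none higher and 4 did not pass, with a median difference of -0.68. The 4 that did not pass differed by -0.48 to 0.30. Among all 6798 genes tested, 90 were called lower and 68 higher. The list was drawn up with earlier results of these data known, so its direction is no independent evidence. The type I collagen gene Col1a1 read 4797, 4936 and 5055 in branching and 10210, 9125 and 8812 in non-branching, and fell by 0.93 on the log2 scale (limma adjusted p = 0.00122). Its second probe set had the same direction and was also called. Its partner chain Col1a2 fell by 1.04 on the log2 scale (limma adjusted p = 5.63e-04). On its less specific probe set the difference was -0.10. The type VI chains Col6a1 and Col6a2 fell by 0.74 and by 0.97 (limma adjusted p = 0.0383 and 0.0161). Col1a1 and Col1a2 passed whichever array was left out, Col6a2 in 2 of 6 omissions and Col6a1 in 1. The lost calls reached 0.0796 for Col6a2 and 0.163 for Col6a1, both without non-branching replicate 3; Col6a2 was also lost without branching replicate 3 (0.0720) and non-branching replicates 1 (0.0517) and 2 (0.0708), and Col6a1 without branching replicates 2 (0.113) and 3 (0.144) and non-branching replicates 1 (0.0888) and 2 (0.122). Without the filter neither passed (0.0534 for Col6a2 and 0.0890 for Col6a1), and Col6a1 did not pass with each array centred on its median (0.0612). Over the same arrays the summed signal of 8 smooth muscle markers was 5700 to 6392 in branching and 10912 to 12644 in non-branching, with 5 of the 8 called lower, and that of the cartilage markers was 3341 to 3495 and 5989 to 6438, with 3 of 6 called lower. Their part in the collagen values was not tested.

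**Figure D4:**
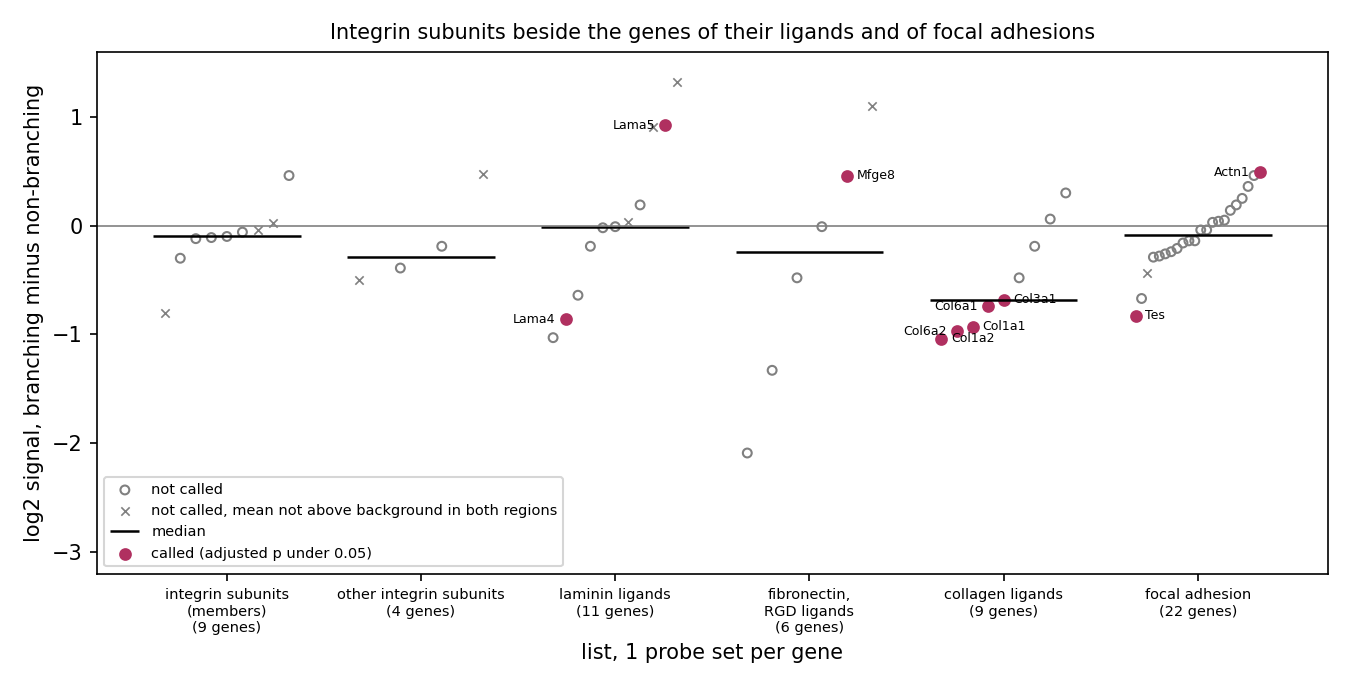
Log2 difference in signal, branching minus non-branching, of the integrin subunits and of 5 lists of related genes, 1 probe set per gene, with the median of each list as a line, called genes filled and crosses for genes whose mean was not above background in both regions. No integrin subunit was called, while 5 of 9 collagen genes were called lower, beside 90 of all 6798 genes tested. The lists were drawn up with earlier results of these data known.

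Inside the cell, integrins act through talin, kindlin and kinases at focal adhesions. Of 22 focal adhesion and integrin-associated genes tested, 1 was called higher, 1 lower and 20 did not pass, with a median difference of -0.09. Tes, which encodes the adhesion adaptor testin, read 824, 790 and 808 in branching and 1325, 1557 and 1428 in non-branching on a less specific probe set. It fell by 0.83 on the log2 scale (limma adjusted p = 0.0120). The call was lost without branching replicate 3 (0.0553), non-branching replicate 2 (0.0604) or non-branching replicate 3 (0.0662). The standard probe set of Tes, 101550_at, was below background on all 6 arrays and was not tested, so the call rests on the less specific one. Actn1, an alpha-actinin that crosslinks actin at adhesions, read 3528, 3776 and 3704 in branching and 2391, 2654 and 2830 in non-branching on a less specific probe set. It rose by 0.49 ± 0.10 (limma adjusted p = 0.0422), and passed in 0 of the 6 fits that left out 1 array (adjusted p 0.0668 to 0.157) or without the filter (0.0757). The standard probe set 92280_at of Actn1 was called in the same direction, with a difference of 0.88 ± 0.16 (limma adjusted p = 0.0261), and the less specific 104579_r_at was not called (0.596).

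Of 16 other integrin subunit genes listed, 8 were read by a probe set with that symbol alone and 4 were tested, with 0 called by limma and 0 at an unadjusted p under 0.05. The 2 with the smallest p were Itgb7, a leukocyte beta chain, and Itgb4, the epithelial beta chain that pairs with Itga6. Itgb7 read 204, 296 and 549 in branching and 461, 382 and 420 in non-branching (limma adjusted p = 0.678). Itgb4 was above background on 1 of 6 arrays, non-branching replicate 2 at 269.6 (limma adjusted p = 0.758). The other genes with such a probe set were either tested and not called or too dim to be tested. The 8 listed genes without one, Itga1 and Itga9 among them, were not analysed here.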

How the data were processed

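Total RNA of 6 dissected samples, 3 per region, was read on 1 array each. The values are the intensity of each probe set as deposited by the authors, on a linear scale. The method behind them was not given in the sources used here. Every array had a mean of 500.3 once its lowest and highest 2% of values were dropped, which shows a scaling by the authors that was kept. Of 12488 probe sets, 66 were controls and were not used. By the platform's annotation, 10833 of the rest had 1 gene symbol. As no genome build is stated, positions are not printed.

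Intensities were raised to a floor of 16 before log2, which makes differences of dim probe sets too small. After the dimmest 25% had been removed by mean log2 signal, 9316 remained for limma 3.58.1 (R 4.3.3; lmFit with the region as factor, eBayes with a trend, two-sided, Benjamini-Hochberg over all 9316). The fit was also run on simulated data whose noise followed the variance trend. That run therefore cannot check the trend on which the calls depend. Probe sets with a name that marks a shared or incomplete design are called less specific.

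The members and lists were chosen with earlier results of these data known. The text names every member and probe set, and at most 4 called genes a list by size of change (in a list with no call, the 2 of smallest p). It also names the 3 genes most like the member of smallest p. Outside this rule, Fn1, Tnc, Vcam1 and Npnt were named after their values were seen. The other tested gene of their list that was not called, Adam15, was higher in branching (limma adjusted p = 0.563). Its non-branching mean was below background. A list gene was represented by its brightest probe set. Alternatives were a replicate block, quantile normalization, median centring, other filters (none, 50%), other floors (64, or 16 added), no trend, array weights, a threshold of 0.10, merged probe sets, and the omission of each array.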

Additional observations from a re-analysis of the deposited data

How the results depend on the processing

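The count of integrin genes called was 0 under every alternative listed, including an adjusted p under 0.10, 1 probe set per gene and the mean of a gene's probe sets. Itga3 kept its direction throughout, with a log2 difference of 0.55 to 1.19 on 104210_at (limma adjusted p 0.0970 to 0.463) and 0.36 to 0.65 on 104211_at (0.131 to 0.618). Of 206 recomputed values of 14 integrin probe sets, 193 kept their direction and side of the threshold. The 13 that reversed were of uncalled differences: Itgav 104385_i_at gave -0.13 with array weights, and with 1 array left out the values ran from -0.30 to 0.39 for that probe set, -0.15 to 0.06 for Itgav 104386_f_at, -1.19 to 0.61 for Itgav 98366_at, -0.26 to 0.48 for Itga7 161497_f_at, -0.31 to 0.08 for Itga2 and -0.27 to 0.10 for Itgb1 100123_f_at. The uncalled Itgb4 ran from -0.86 to 0.04 (without non-branching replicate 2). The uncalled Npnt gave 0.02 with quantile normalization, 0.03 with median centring and -0.10 to 0.14 with 1 array left out. The cause was not tested. Over all genes, 189 probe sets were called, and 114 with the replicate block, 100 without the filter, 22 without the variance trend, 359 at an adjusted p under 0.10 and 61 to 150 with 1 array left out. Of the ligand, other integrin and focal adhesion genes, 3 were called higher and 7 lower; the higher ones numbered 1 with the replicate block, 1 without the filter, 0 without the variance trend and 0 to 1 with 1 array left out, and the lower ones 4 without the filter, 0 without the variance trend, 11 at an adjusted p under 0.10 and 2 to 8 with 1 array left out. The lower ones numbered 6 with the replicate block and 6 with median centring; the block ended the calls of Mfge8 (adjusted p 0.118), Actn1 104578_f_at (0.0934) and Col6a1 (0.0904). The labels do not say whether same-numbered arrays belonged together. Their deviations correlated at -0.01 to 0.01, which cannot settle this with 3 arrays per region. Signal near background limits Itga4, Itga5, Itga6 and Itga8.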
